A study of Mus musculus with 4 samples.

Results

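Bmp2, Bmp4 and Sostdc1 were read as 3 of the 328 genes of a Xenium panel, an assay that finds individual transcripts where they lie in the tissue. The genes were chosen by name, and all 3 were detected in every section. Sections of 5 µm came from TRE-Pitx1/Krt5-rtTA mice, in which the Krt5 promoter drives the transactivator in basal keratinocytes and doxycycline then turns on the transcription factor PITX1. Littermates ate normal chow (Control) or chow with doxycycline (PITX1+), which began in telogen, the resting phase of the hair cycle. The transgenes were thus shared and doxycycline differed with the condition. Of the 4 slides, 2 held unwounded skin, of male and of female mice, 1 held buccal mucosa of Control mice of both sexes, and 1 held male skin on day 4 after wounding. Ages of the mice were not given in the sources used here. The labels name the slide and not the condition of each section, so sections were assigned by position: the first section of the male slide and the first 2 of the female slide were taken as Control, and the other 4 unwounded skin sections as PITX1+. That gave 3 Control, 4 PITX1+ and 7 buccal sections, with 1 Control and 2 PITX1+ wounds.

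Control 1 and 2 and PITX1+ 1 and 2 are female, and Control 3 and PITX1+ 3 and 4 are male. The labels do not tie sections to animals, although the study's legend counts PITX1+ skin by mouse, so the p-values below measure the spread between sections, and slide and sex cannot be told apart. Control sections held 474847 to 749248 transcripts and PITX1+ sections 2832562 to 5581930, with a median per cell of 17 to 28 and 30 to 83. Transcripts were summed over the cells of one kind in one section, and levels are given as CPM, the counts of a gene per 1000000 panel transcripts of those cells. A section was compared where it held at least 50 cells of that kind. CPM compares one gene between cells, and levels of different genes were not compared, because their probes differ. Pitx1 itself was read at 61.0, 55.5 and 12.2 CPM in keratinocyte-like cells of Control 1 to 3. It stood at 45.5, 77.3, 1054 and 832 CPM in PITX1+ 1 to 4, so the 2 female sections assigned to PITX1+ did not both stand above Control by this measure.

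Bmp2 and Bmp4 encode secreted ligands of the bone morphogenetic protein (BMP) family, which bind pairs of type I and type II receptors, activate SMAD proteins and induce Id genes. Sostdc1 encodes a secreted protein, also called ectodin or Wise, that binds BMPs and dampens their signal and also acts on Wnt receptors. In the hair follicle, BMP signals are known to keep bulge stem cells at rest and to drive matrix cells into hair shaft fates, and dermal papilla cells are a known source of BMP ligands and inhibitors.

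In PITX1+ skin, Bmp2 and Bmp4 were highest in hair shaft-like cells, which formed 2 clusters led by Dsg4 and Tgfa, with Krtap17-1 and Dlx3, genes of the forming hair, high in both. These cells numbered 830, 2592, 1903 and 770 in PITX1+ 1 to 4, and only 1 cell of the 3 Control sections was given this name. Bmp2 stood there at 6165, 6420, 9368 and 10118 CPM. Bmp4 stood at 9511, 7788, 11885 and 11930 CPM, and for both ligands the male sections stood above the female ones. Sostdc1 was low in the same cells, at 491, 282, 351 and 388 CPM. Immune-like cells, the reference for transcripts taken in from neighbours, ranged over the 7 skin sections from 139 to 659 CPM for Bmp2, from 133 to 635 for Bmp4 and from 38.7 to 695 for Sostdc1. In PITX1+ 1 to 4 the immune-like cells held 653, 234, 112 and 71.9 CPM of Sostdc1, so the hair shaft-like cells stood below them in the first section and above them in the other 3. Bmp2 transcripts were found in 21.6% to 38.1% of hair shaft-like cells against 0.613% to 2.08% of immune-like cells, and Bmp4 transcripts in 33.8% to 54.5% against 0.613% to 1.74%. Both ligands together were read in 12.3%, 11.8%, 22.5% and 26.1% of hair shaft-like cells of PITX1+ 1 to 4. Median transcripts per cell were 59 to 113 in hair shaft-like and 24 to 68 in immune-like cells of skin. Hair shaft-like cells were 1.45% to 4.98% of the cells of PITX1+ sections. They held 19.3%, 38.0%, 58.6% and 34.5% of the Bmp2 transcripts and 41.2%, 45.6%, 57.9% and 27.1% of the Bmp4 transcripts of PITX1+ 1 to 4.

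Matrix-like cells, led by Shh, the ligand made by the growing follicle base, had the second highest Bmp4 level among keratinocyte-like kinds. They numbered 391, 2878, 1377 and 1341 in PITX1+ 1 to 4, and Control sections held at most 3. Bmp4 was read there at 2111, 2718, 4607 and 4651 CPM. Bmp2 was read at 1182, 1375, 2148 and 2594 CPM, and both ligands were higher in the male than in the female sections. Sostdc1 was nearly level, at 1436, 1081, 1153 and 1023 CPM. They held 3.94%, 16.8%, 16.3% and 19.1% of the Bmp4 transcripts of PITX1+ 1 to 4. Basal-like cells, far more numerous in PITX1+ 1, held 15.9%, 8.89%, 1.97% and 2.59%, more than the matrix-like cells in that section. Per transcript, Bmp4 was thus highest in the hair shaft-like and matrix-like kinds, while the other named keratinocyte-like kinds stood at 20.1 to 967 CPM, with cycling-like cells (333 to 967 CPM) next.

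Sostdc1 had another distribution. Its highest means over skin sections were in cycling-like (6340 CPM), upper follicle-like (6090), basal-like (5542) and bulge-like cells (4819). The cycling-like mean covers 5 sections and the others cover 7. Cycling-like cells stood above upper follicle-like cells in 3 of those 5 sections, so their order is open. Dermal papilla-like (4204) and neural-like cells (3919 CPM) followed. The levels ran down through sebaceous-like (2117), activated (1290), differentiated (1271) and matrix-like cells (1173) to Pi16-type fibroblasts (215) and inflammatory fibroblasts (162 CPM, over 2 sections). For Bmp2 the highest means were in hair shaft-like (8018), bulge-like (3620) and matrix-like cells (1825). These means cover different sections, 7 for bulge-like and 4 PITX1+ sections for matrix-like cells, and in those 4 sections matrix-like cells stood above bulge-like cells (1182, 1375, 2148 and 2594 against 552, 972, 635 and 1951 CPM). For Bmp4 the highest means were in hair shaft-like (10278), dermal papilla-like (6997) and matrix-like cells (3522), followed by Pi16-type fibroblasts (846). In the 4 PITX1+ sections that held both kinds, matrix-like cells stood above dermal papilla-like cells (2111, 2718, 4607 and 4651 against 1192, 1581, 1233 and 3994 CPM). None of the 48 pairs of neighbours in these orders differed after adjustment in exact sign-flip permutation tests over sections, and 1 had an unadjusted p of 0.0469 (Sostdc1 in neural-like against sebaceous-like cells). Where only 4 sections held both kinds, the smallest p such a test can give is 0.125.

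**Figure D1:**
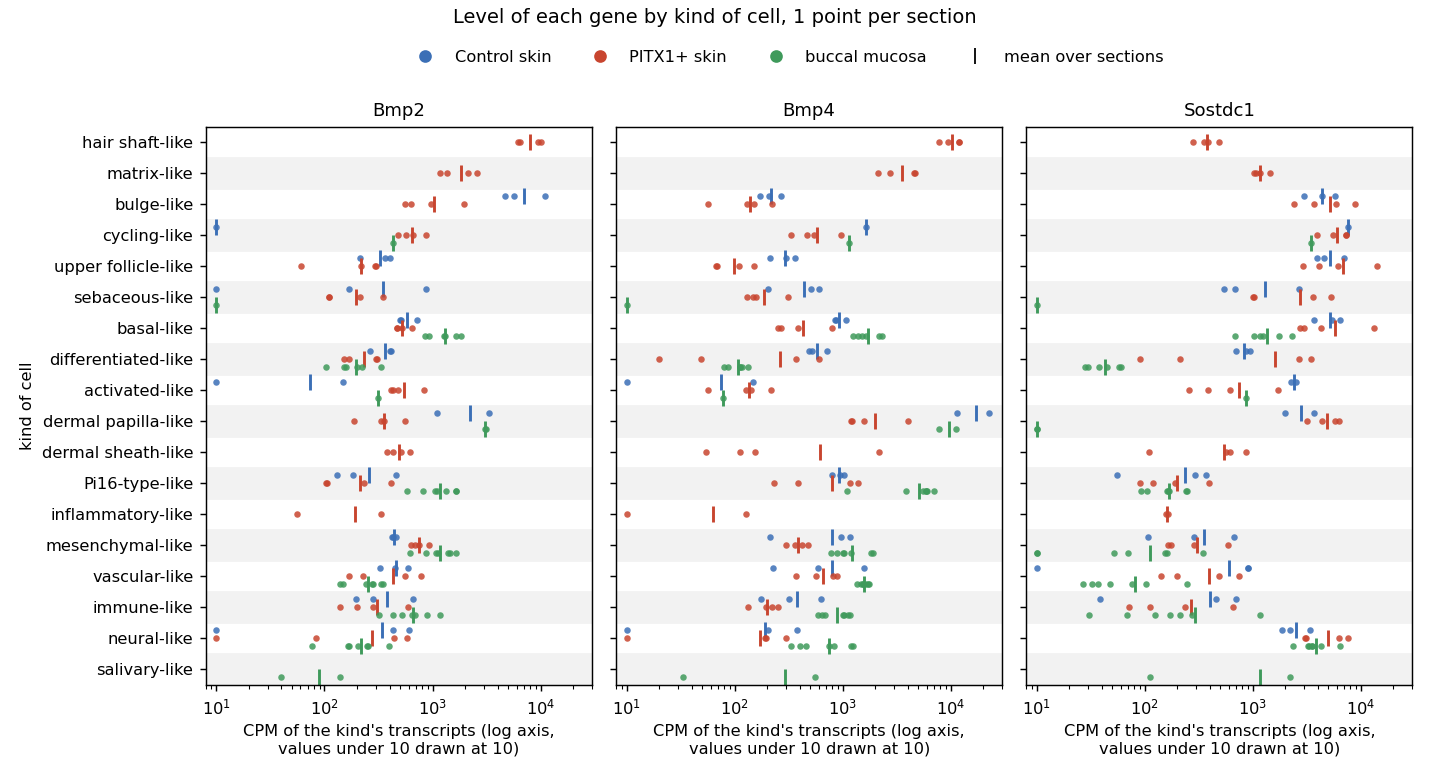
Level of Bmp2, Bmp4 and Sostdc1 (CPM, log axis, values under 10 drawn at 10) in each section for each kind of cell with at least 50 cells, with Control, PITX1+ and buccal sections as separate colours. In PITX1+ skin hair shaft-like cells are highest for both ligands and low for Sostdc1, with Bmp2 from 6165 to 10118 CPM and Sostdc1 from 282 to 491 CPM.

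The same pattern could be seen as single transcripts. In a square of 400 µm in Control 3, chosen as the one with the most Bmp2 among Control sections, there were 64 Bmp2, 1 Bmp4, 27 Sostdc1 and 0 Shh transcripts beside 518 of Krt5, the basal keratin. Bmp2 lay inside the outline drawn by Krt5. The square with the most Shh among PITX1+ sections, in PITX1+ 2, held 180 Bmp2, 242 Bmp4, 512 Sostdc1, 1038 Shh and 2517 Krt5 transcripts. There Shh formed a crescent, Sostdc1 filled the area inside the crescent, and the ligands lay in a band towards the middle of the follicle.

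**Figure D2:**
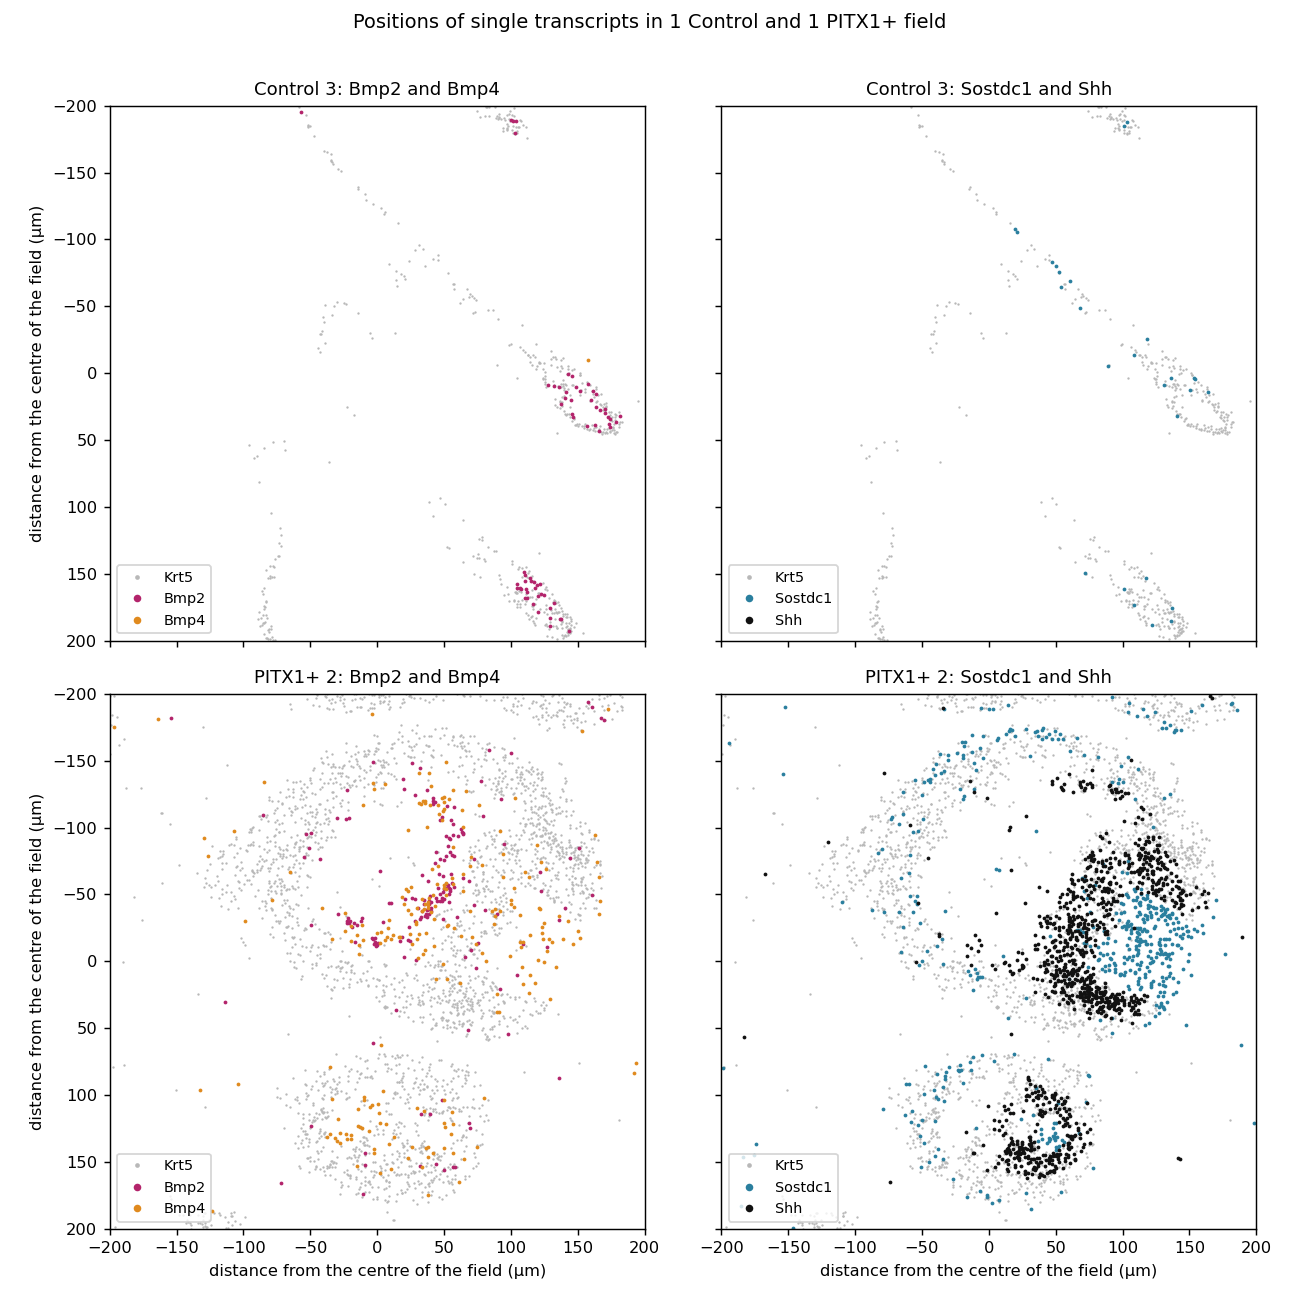
Positions of single transcripts in 1 square of 400 µm of Control 3 (top) and PITX1+ 2 (bottom), both axes in µm within the square, with Bmp2 and Bmp4 on the left, Sostdc1 and Shh on the right and Krt5 in grey. In the PITX1+ square the 512 Sostdc1 transcripts are densest inside the crescent formed by the 1038 Shh transcripts, and the Control square has no Shh.

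The comparison of PITX1+ with Control skin asked whether the 3 genes differed within cells of one kind. The study describes PITX1+ follicles as arrested at the height of anagen, the growth phase. Hair shaft-like and matrix-like cells were nearly absent from Control sections. Condition and phase of the hair cycle therefore cannot be told apart in the follicle kinds below. Bmp2 fell in bulge-like cells, the kind named from Krt15, Cd34, Lgr5, Lhx2 and Sox9 that holds follicle stem cells. It was read at 5620, 4720 and 10889 CPM in Control 1 to 3 and at 552, 972, 635 and 1951 CPM in PITX1+ 1 to 4. Every PITX1+ section lay below every Control section, with means of 7076 ± 3332 (SD, n = 3) and 1028 ± 642 (SD, n = 4). The log2 change was -3.08 with a standard error of 0.38 (edgeR quasi-likelihood test, adjusted p = 4.69e-05). In these cells 41.7% of the 242 genes tested were called in either direction and 20.2% as lower, and 10.7% had every PITX1+ value below all Control values. The call held under each of the 21 alternatives run, with changes from -3.44 to -1.18.

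Bmp2 transcripts were seen in 13.1%, 12.3% and 23.9% of bulge-like cells of Control 1 to 3 and in 2.98%, 3.98%, 3.73% and 11.5% of those of PITX1+ 1 to 4. The share was lower in each PITX1+ section although their cells were deeper, with a median of 49 to 109 transcripts per cell against 26. Bulge-like cells were 5.68%, 7.06% and 8.66% of Control cells and 0.294%, 0.768%, 14.6% and 12.2% of PITX1+ cells, so the female PITX1+ sections held few of them and the male ones many. They held 29.1%, 40.7% and 77.0% of all Bmp2 transcripts of Control 1 to 3, and 0.284%, 1.09%, 9.03% and 28.3% of those of PITX1+ 1 to 4. The bulge-like kind held the largest share of Bmp2 transcripts in each Control section and the hair shaft-like kind in PITX1+ 2, 3 and 4. In PITX1+ 1 hair shaft-like (19.3%), basal-like (19.1%) and activated cells (17.5%) held nearly equal shares.

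Different clusters made up the bulge-like cells of the 2 conditions. A cluster led by Wfdc3 held 981, 828 and 995 of these cells in Control and 79, 194, 707 and 1028 in PITX1+ sections, while a cluster led by Lgr5 held 4, 4 and 103 against 89, 384, 4876 and 2398. Within the Wfdc3-led cluster alone, Bmp2 was read at 5646, 4750 and 11719 CPM in Control and at 545, 2628, 5568 and 8309 CPM in PITX1+ sections. These ranges overlapped, and the change of -1.18 (SE 0.34) passed the threshold (edgeR, adjusted p = 0.0331, with 15.3% of 222 genes called). It no longer passed without Control 1, Control 2, PITX1+ 2 or PITX1+ 3 or without the slide covariate, with adjusted p up to 0.766 in edgeR. The Lgr5-led cluster had too few Control cells for a test, with Bmp2 at 5577 CPM in Control 3 and at 557, 353, 220 and 167 CPM in PITX1+ 1 to 4. The size of the fall over all bulge-like cells was thus larger than within the Wfdc3-led cluster, and the part of the changed make-up in it was not tested.

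Sostdc1 did not pass the test in the same bulge-like cells. It was read at 2965, 4337 and 5701 CPM in Control and 2430, 3660, 5904 and 8734 CPM in PITX1+ sections, with overlapping ranges and a log2 change of -0.19 (SE 0.29, edgeR, adjusted p = 0.639), whose sign turned under 11 of 21 alternatives. Bmp4 was at the level of the immune-like reference, from 57.2 to 271 CPM over the 7 sections, and was left out of the test by the filter on low counts.

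Bmp4 was lower in dermal papilla-like cells, the fibroblast-like cluster led by Wif1 and Dkk2, Wnt inhibitors of the signalling cells at the follicle base. It was read at 11406, 10853 and 22573 CPM in Control 1 to 3, where 101, 44 and 123 cells held 52, 21 and 130 transcripts. In PITX1+ 1 to 4 it was read at 1192, 1581, 1233 and 3994 CPM, and 1323, 3217, 2894 and 1431 cells held 68, 312, 232 and 627 transcripts. Control 2 fell short of the minimum of 50 cells, so the kind was tested with a minimum of 30, a limit chosen after its cells had been counted. All 4 PITX1+ sections lay below all 3 Control sections, and the log2 change was -2.80 (SE 0.39, edgeR, adjusted p = 2.79e-07). Of the 275 genes tested 13.8% were called, 10.2% as higher and 3.64% as lower, and 4.73% had every PITX1+ value below all Control values. Without the slide covariate the change was -2.62 (edgeR, adjusted p = 0.0551), and without Control 2 it was -2.73 (edgeR, adjusted p = 0.00181).

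Dermal papilla-like cells were 0.583%, 0.374% and 0.970% of the cells of Control 1 to 3 and 2.31%, 4.27%, 7.57% and 5.11% of those of PITX1+ 1 to 4. They held 9.59%, 6.36% and 31.1% of Bmp4 transcripts in Control and 5.35%, 9.91%, 5.43% and 14.9% in PITX1+ sections. Keratinocyte markers were also read in these cells, 16 to 25 of 34 in Control at a sum of 23256 to 34657 CPM and 33 or 34 of 34 in PITX1+ sections at 35611 to 75546 CPM, and their part in the result was not tested. The kind was not uniform in PITX1+ sections, as the values by position below show. The part of its make-up in the Bmp4 change was not tested.

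Bmp2 fell and Sostdc1 rose in dermal papilla-like cells, and both calls depended on how the cells were grouped. Bmp2 stood at 1097, 517 and 3299 CPM in Control, on 5, 1 and 19 transcripts each, and at 561, 355, 186 and 331 CPM in PITX1+ sections (log2 change -2.17, SE 0.62, edgeR, adjusted p = 0.0117). Without Control 3 the change was -0.78 (edgeR, adjusted p = 0.798), and with 30 clusters it was -1.60 and did not pass (edgeR, adjusted p = 0.0533). Sostdc1 stood at 1974, 517 and 3646 CPM in Control, on 9, 1 and 21 transcripts each, and at 5787, 4332, 3156 and 6326 CPM in PITX1+ sections, 3 of them above all Control sections (log2 change 1.30, SE 0.44, edgeR, adjusted p = 0.0383). It stayed past the threshold in 6 of 20 alternatives, and another random seed of the clustering gave 1.04 (edgeR, adjusted p = 0.140). Under library size in place of TMM scaling the median change of all genes in this kind moved from 0.34 to 0.14, and the share of calls that were higher from 73.7% to 56%.

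**Figure D3:**
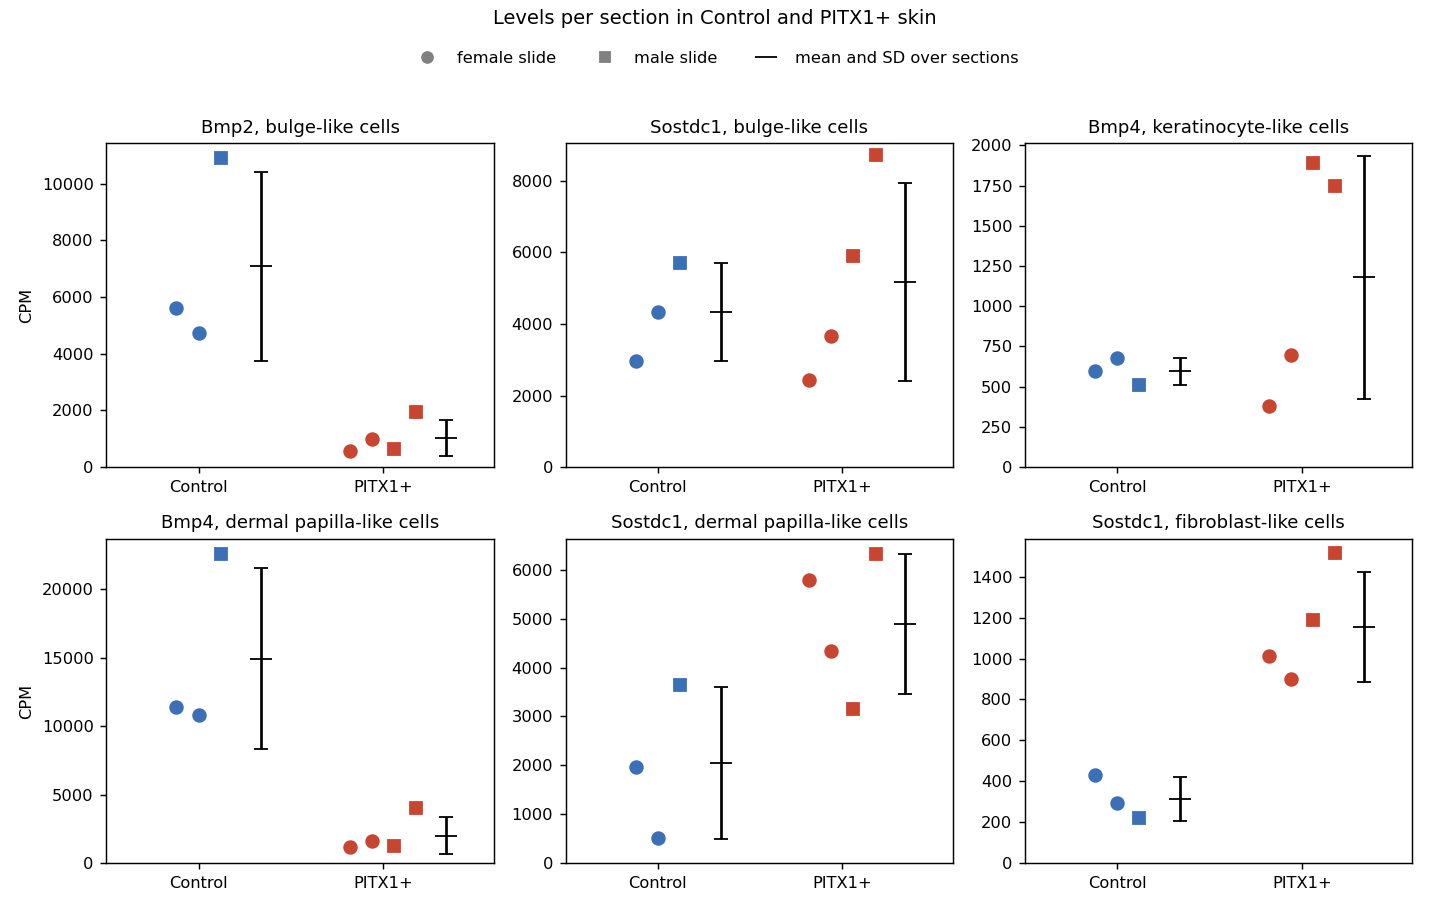
Level (CPM, axes from 0) in Control and PITX1+ sections for Bmp2 and Sostdc1 in bulge-like cells, Bmp4 in keratinocyte-like cells, Bmp4 and Sostdc1 in dermal papilla-like cells and Sostdc1 in fibroblast-like cells, with circles for female and squares for male sections and lines for the mean and SD. Bmp2 in bulge-like and Bmp4 in dermal papilla-like cells have no overlap between conditions, with means of 7076 against 1028 CPM for Bmp2.

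Over all fibroblast-like cells, which include the dermal papilla-like kind, Sostdc1 rose. It was read at 430, 294 and 219 CPM in Control and at 1011, 902, 1187 and 1518 CPM in PITX1+ sections, with no overlap. The log2 change was 1.59 (SE 0.33, edgeR, adjusted p = 0.0130), where 10.7% of 328 genes were called, 7.01% as higher and 3.66% as lower, and 7.32% had every PITX1+ value above all Control values. The call was lost without PITX1+ 2 (1.70, edgeR, adjusted p = 0.0674) and without the slide covariate (1.75, edgeR, adjusted p = 0.315). In Pi16-type fibroblasts, the other large kind, Sostdc1 stood at 367, 290 and 55.9 CPM in Control and 393, 190, 90.3 and 119 CPM in PITX1+ sections, a log2 change of -0.06 (SE 0.37, edgeR, adjusted p = 0.946). The high Sostdc1 of fibroblast-like cells was read in the dermal papilla-like kind, whose share of all cells was also higher in PITX1+ sections. Keratinocyte markers summed to 4724 to 17015 CPM in fibroblast-like cells of Control and to 12118 to 35471 CPM in those of PITX1+ sections, with 33 or 34 of 34 counted in each, and their part was not tested.

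Bmp4 in fibroblast-like cells was lower by the test, although the sections overlapped. It was read at 1406, 990 and 1879 CPM in Control and at 428, 454, 1172 and 1973 CPM in PITX1+ sections, lower in the female pair and within or above the Control range in the male pair. The log2 change of -1.24 (SE 0.32, edgeR, adjusted p = 0.0253) fell short of the threshold under 8 of 19 alternatives, among them leaving out Control 1 or 2 or PITX1+ 1, 2 or 3. Bmp2 stood at 484, 137 and 325 CPM in Control and 428, 256, 140 and 157 CPM in PITX1+ sections (log2 change -0.63, SE 0.43, edgeR, adjusted p = 0.372). In these cells Bmp2 was close to the immune-like reference.

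Over all keratinocyte-like cells none of the 3 genes passed the threshold in edgeR, where 29.3% of 328 genes did. Bmp2 was read at 918, 799 and 2406 CPM in Control and 527, 711, 1695 and 1785 CPM in PITX1+ sections (log2 change -0.45, SE 0.23, edgeR, adjusted p = 0.165). Bmp4 was read at 598, 677 and 512 CPM in Control and 379, 697, 1894 and 1750 CPM in PITX1+ sections (log2 change 0.57, SE 0.39, edgeR, adjusted p = 0.289). Sostdc1 was read at 2256, 2764 and 3325 CPM in Control and 1274, 1550, 3615 and 5959 CPM in PITX1+ sections (log2 change -0.27, SE 0.27, edgeR, adjusted p = 0.432). For all 3 genes the male PITX1+ sections stood above the female ones. DESeq2 called Bmp2 lower (log2 change -0.51, adjusted p = 0.0472), where it called 164 of 328 genes.

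Basal-like, differentiated, sebaceous-like, upper follicle-like and Pi16-type cells gave 11 further tests of the 3 genes, and edgeR called 0 of them, while 4 had an unadjusted p under 0.05. The share of all genes with such an unadjusted p is not given, so that count does not set the 3 genes apart. DESeq2 called 2, Bmp4 in basal-like and differentiated cells, where it called 117 and 68 of 328 genes. The shares of all genes called by edgeR were 15.5% in basal-like, 0.66% in differentiated, 7.46% in sebaceous-like, 10.6% in upper follicle-like and 1.23% in Pi16-type cells. Bmp4 in basal-like cells stood at 861, 840 and 1073 CPM in Control and at 385, 269, 253 and 795 CPM in PITX1+ sections, all 4 below Control as for 10.5% of genes (log2 change -1.22, SE 0.43, edgeR, adjusted p = 0.0883). Those cells were mostly of a cluster led by Fcgbp and Clca3a2 in Control, 624 to 2722 of them, and were joined in PITX1+ sections by clusters led by Ptch1, Gstm5 or Stfa3. The Ptch1-led and Gstm5-led clusters also had follicle genes among their leading genes (Wnt6, Lgr5 and Sox9 in one, Sox9 in the other), and the second clustering within keratinocyte-like cells named its Ptch1-led cluster matrix, so the basal-like name does not place these cells in the basal layer. Within the Clca3a2-led cluster the Bmp4 change was -1.09 (SE 0.53, edgeR, adjusted p = 0.311, with 4.03% of 273 genes called). Sostdc1 in basal-like cells stood at 3659, 5432 and 6437 CPM in Control and at 2981, 2754, 4266 and 13266 CPM in PITX1+ sections, the last of them the highest and the female ones below Control. Sostdc1 in upper follicle-like cells, which line the follicle opening, stood at 4575, 3899 and 6980 CPM in Control and at 2883, 4135, 6188 and 13968 CPM in PITX1+ sections, with the same section highest. Sostdc1 in differentiated cells was lower in the female and higher in the male PITX1+ sections than in their Control sections, and the difference between the slides was 3.07 on the log2 scale (edgeR interaction test, adjusted p = 0.0185, with 11.6% of 303 genes called).

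Sostdc1 was lower in the cells named activated, from a list that holds the stress keratins Krt6a, Krt16 and Krt17. These cells numbered 149, 90 and 39 in Control and 6138, 3421, 2417 and 448 in PITX1+ sections, so they too were tested with a minimum of 30 cells. Sostdc1 was read at 2523, 2248 and 3666 CPM in Control, on 17, 8 and 5 transcripts each, and at 258, 383, 615 and 1714 CPM in PITX1+ sections. The sections did not overlap, and the log2 change was -2.18 (SE 0.53, edgeR, adjusted p = 0.0135), where 23.4% of 222 genes were called, 6.31% as lower, and 7.21% had every PITX1+ value below all Control values. The call was lost under 6 of 15 alternatives, among them leaving out Control 1 or Control 2, with changes of -1.65 and -1.79 (edgeR, adjusted p = 0.194 and 0.0812). All but 1 of the Control cells lay in a cluster led by Krt79 and Plet1, where Sostdc1 was 261, 429, 523 and 2357 CPM in PITX1+ 1 to 4, the last of them within the Control range. Krt79 and Plet1 are on the upper follicle list, and Krt6a and Krt16 were not among the leading genes of this cluster. The second clustering named its cluster with Krt79 and Plet1 among the leading genes upper follicle. The name activated thus does not hold for the Control cells, and the part of this make-up in the result was not tested. The PITX1+ sections also held clusters led by Areg or Aldh1a3. Bmp2 went the other way in the cells named activated, with a log2 change of 2.79 that missed the threshold (edgeR, adjusted p = 0.0786). It passed in 1 of 13 alternatives, and Control 2 and 3 held 0 Bmp2 transcripts in these cells.

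Position was read from keratinocyte-like cells with at least 2 Shh transcripts, which were themselves left out of the cells near and far. Shh also leads the matrix-like kind, so in keratinocyte-like cells this contrast is not independent of the naming. Such cells numbered 210, 1597, 796 and 718 in PITX1+ 1 to 4 and 0 in each Control section. In PITX1+ skin, keratinocyte-like cells within 50 µm of such a cell held more of both ligands than those beyond 100 µm in 4 of 4 sections. The share of all panel genes higher near in every section was not computed, so this count does not set the ligands apart from other genes. Bmp4 was read near at 3647, 2626, 4475 and 3491 CPM and far at 149, 97.7, 177 and 464 CPM, a mean log2 difference of 4.15 ± 0.85 (SD, n = 4). Bmp2 was read near at 2747, 2220, 3645 and 2619 CPM and far at 380, 290, 564 and 1123 CPM, a mean log2 difference of 2.40 ± 0.80 (SD, n = 4). Sostdc1 had no common direction, with 2731, 2070, 3528 and 4024 CPM near and 1185, 1365, 3949 and 8040 CPM far. Its mean log2 difference was 0.16 ± 0.95 (SD, n = 4), and the exact sign-flip permutation test gave p = 0.75.

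In fibroblast-like cells Sostdc1 had the largest difference of the 3 genes. It was read at 18020, 5094, 4114 and 6822 CPM within 50 µm of an Shh-positive cell and at 456, 212, 445 and 269 CPM beyond 100 µm, a mean log2 difference of 4.40 ± 0.88 (SD, n = 4). Bmp4 had a mean log2 difference of 1.98 ± 0.78 and Bmp2 of 0.88 ± 0.52 (SD, n = 4), higher near in 4 of 4 sections each. The share of all panel genes with that count was not computed here either. The zones differed in make-up, with 54.4%, 54.5%, 63.7% and 62.9% dermal papilla-like cells near and 8.03%, 8.33%, 29.4% and 9.09% far. In Pi16-type fibroblasts Bmp4 was 700, 261, 1066 and 1061 CPM near and 388, 230, 1215 and 1502 CPM far. Their Bmp2 was 525, 184, 139 and 20.4 CPM near and 408, 231, 100 and 122 CPM far. Neither ligand had a common direction in that kind. For each difference with 4 of 4 sections the two-sided exact sign-flip permutation test gave 0.125, the smallest p that 4 sections allow (0.15 adjusted over the 6 tests), so the design could not reach 0.05.

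Sostdc1 in fibroblast-like cells was concentrated in the first 25 µm, at 38024, 13372, 8943 and 16460 CPM. From 25 to 50 µm it was already at 2267, 1383, 783 and 640 CPM. Of the cells in the first zone 73.0%, 79.4%, 86% and 88.8% were dermal papilla-like, and 38.4%, 25.4%, 29.4% and 36.8% held a Sostdc1 transcript. Keratinocyte markers summed to 51356, 38462, 38064 and 31463 CPM in this zone against 34517, 20242, 14779 and 8471 CPM beyond 100 µm. Sostdc1 in the Shh-positive cells themselves was 1154, 1137, 1057 and 1129 CPM, so the cells next to them held many times their level.

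Dermal papilla-like cells of PITX1+ skin thus differed by place. Within 25 µm of Shh-positive cells Bmp4 stood at 2723, 6426, 5044 and 11179 CPM and Sostdc1 at 48240, 15729, 10483 and 18374 CPM. Beyond 100 µm lay 943, 1077, 1574 and 433 of these cells, where Bmp4 stood at 951, 231, 241 and 1479 CPM and Sostdc1 at 1415, 594, 1276 and 1433 CPM. Fibroblast markers summed there to 145816, 281598, 242518 and 292017 CPM. Within 25 µm they summed to 126629, 190488, 164648 and 161577 CPM, and in Control 1 and 3 to 117350 and 134919 CPM. The name alone thus does not place all these cells in the papilla. Even next to Shh-positive cells 3 of 4 sections lay below the 10853 CPM of the lowest Control section for Bmp4. With cells within 100 µm of Shh-positive cells left out, the Bmp4 change in dermal papilla-like cells was -4.46 (edgeR, adjusted p = 2.68e-23) and that of Sostdc1 was -0.90 (edgeR, adjusted p = 0.200). In all fibroblast-like cells the Sostdc1 change then became -0.08 (edgeR, adjusted p = 0.928). In keratinocyte-like cells Bmp4 went from 0.57 to -1.45 (edgeR, adjusted p = 0.0517) and Bmp2 to -1.15 (edgeR, adjusted p = 0.0513). Control sections had 0 Shh-positive cells, so this step removed cells from PITX1+ sections alone.

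**Figure D4:**
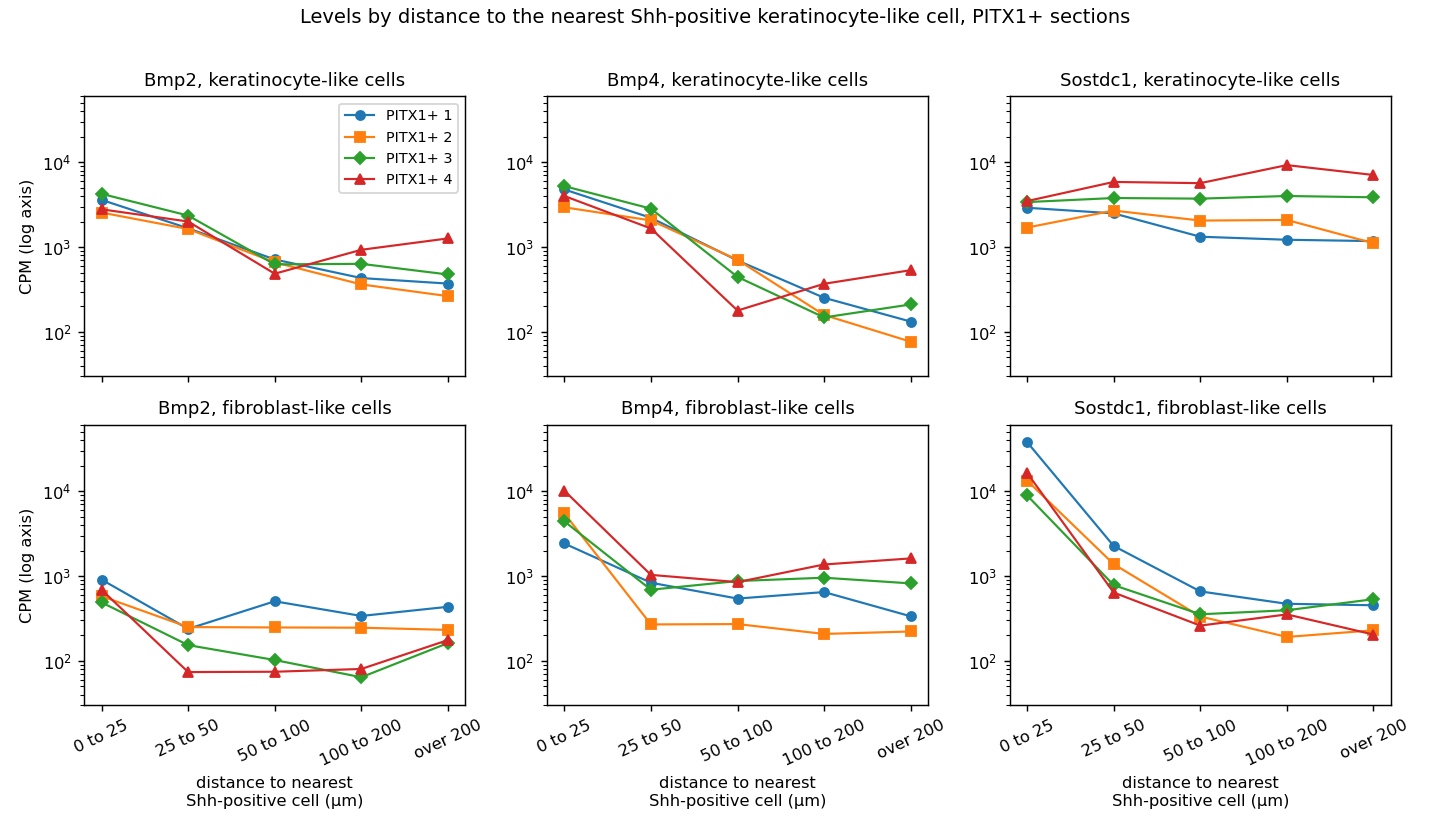
Level (CPM, log axis) of the 3 genes in keratinocyte-like and fibroblast-like cells of the 4 PITX1+ sections in 5 bins of distance (µm) from the nearest keratinocyte-like cell with at least 2 Shh transcripts, 1 line per section. Sostdc1 in fibroblast-like cells drops from between 8943 and 38024 CPM in the first 25 µm to between 640 and 2267 CPM in the next bin.

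The panel held 5 other genes of the pathway, which are the ligand Bmp7, the receptors Bmpr1a and Bmpr2, and the targets Id1 and Id3. In PITX1+ against Control skin 0 of the 5 passed in keratinocyte-like cells, where 29.3% of all genes did, and 0 in fibroblast-like cells, where 10.7% did (edgeR). Bmp7 was lower in bulge-like cells, from 485 ± 171 CPM (SD, n = 3) to 144 ± 135 CPM (SD, n = 4), a log2 change of -2.39 (SE 0.66, edgeR, adjusted p = 0.0118). It was also lower in dermal papilla-like cells, which are few in Control, from 1240.5 ± 815 CPM (SD, n = 3) to 185 ± 129 CPM (SD, n = 4), a log2 change of -2.51 (SE 0.74, edgeR, adjusted p = 0.0142). Both calls were lost without the slide covariate, without Control 2 and without Control 3, and the second also without PITX1+ 2 (edgeR, adjusted p from 0.0544 to 0.360). Id3, a transcriptional inhibitor induced by BMP signals, rose in basal-like cells (log2 change 1.09, SE 0.27, edgeR, adjusted p = 0.0326). That call was lost without the slide covariate and without Control 1, 2 or 3 or PITX1+ 1 or 2 (edgeR, adjusted p up to 0.451), and within their Clca3a2-led cluster its change was -0.43 and did not pass (edgeR, adjusted p = 0.508).

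Buccal mucosa lay on a slide of its own, so tissue and slide cannot be told apart, and it has no hair follicles. Sostdc1 was lower in its keratinocyte-like cells, at 313, 206, 0, 597, 129, 507 and 267 CPM in Buccal 1 to 7 against 2256 to 3325 CPM in Control skin (288 ± 208, SD, n = 7, and 2782 ± 535, SD, n = 3). The log2 change was -1.92 (SE 0.67, edgeR, adjusted p = 0.0366), where 40.8% of 321 genes were called and 34.3% had every buccal section below Control. Sebaceous-like cells were counted as keratinocyte-like, and Buccal 3 held 85 such cells, 84 of them in the sebaceous-like kind. None of the 3 genes was read in these cells, but the section is among the 7 of each mean and test. Without Buccal 3 the change was -1.72 (edgeR, adjusted p = 0.00229). The call was lost under 8 of 20 alternatives, which were 60 clusters and leaving out Control 1, 2 or 3 or Buccal 1, 2, 5 or 7 (edgeR, adjusted p up to 0.145). Immune-like cells of the mucosa averaged 293 CPM of Sostdc1, 666 of Bmp2 and 895 of Bmp4. The means of buccal keratinocyte-like cells, 288, 365 and 376 CPM in the same order, lay below this reference. In the basal-like cells of the other 6 sections Sostdc1 stood at 679 to 2325 CPM, Bmp2 at 843 to 1852 CPM and Bmp4 at 1235 to 2317 CPM, against 3659 to 6437, 498 to 715 and 840 to 1073 CPM in Control skin, and in differentiated cells no gene of the 3 exceeded 335 CPM. Of these 2 kinds, the 3 genes were thus higher in the basal-like one.

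The values of all 3 genes in keratinocyte-like cells depended on the scaling. The Sostdc1 change of -1.92 was -3.18 under library size in place of TMM (edgeR, adjusted p = 0.00130), with the same direction and call. Bmp4 had a log2 change of 0.77 (edgeR, adjusted p = 0.410), or 0.99 without Buccal 3 (edgeR, adjusted p = 0.00878), but its CPM were 376 ± 199 (SD, n = 7) against 595 ± 82.8 (SD, n = 3), and library size in place of TMM turned the change to -0.60 (edgeR, adjusted p = 0.445). Bmp2 lay below Control in 7 of 7 sections, among them Buccal 3 with its sebaceous-like cells and no Bmp2 read. Its change was -0.62 (edgeR, adjusted p = 0.542) and became -1.84 (edgeR, adjusted p = 0.0302) under library size. That scaling moved the median change of all genes from -0.18 to -1.03 and the share of calls that were higher from 35.1% to 16%.

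In fibroblast-like cells of the mucosa Bmp2 was higher and Sostdc1 lower than in Control skin by the test, with Sostdc1 at the level of the immune-like reference in both. Bmp2 stood at 1711, 1110, 632, 1652, 818, 1176 and 1354 CPM, all above Control, with a log2 change of 1.64 (SE 0.43, edgeR, adjusted p = 0.0141), where 28.5% of 291 genes were called and 18.2% had every section above Control. Without Control 2 the change was 1.36 (edgeR, adjusted p = 0.0729). Bmp4 stood at 7121, 5894, 1034, 6035, 5584, 4351 and 5965 CPM, above Control in 6 of 7 sections, and missed the threshold (log2 change 1.45, SE 0.54, edgeR, adjusted p = 0.0581), while without Buccal 3 it passed (1.64, edgeR, adjusted p = 0.00264). Mean Bmp2 was also higher in buccal immune-like (666 against 379 CPM) and mesenchymal (muscle and pericyte) cells (1171 against 438). It was lower in vascular (252 against 459) and neural-like cells (216 against 344). Mean Bmp4 was higher in all of these, in the same order at 895 against 376, 1233 against 788, 1577 against 801 and 742 against 192 CPM. Sostdc1 stood at 86.1 to 294 CPM against 219 to 430 CPM in Control, below it in 5 of 7 sections (log2 change -1.23, SE 0.37, edgeR, adjusted p = 0.0266). The means of 173 and 314 CPM lay below those of immune-like cells, 293 and 398 CPM. That call was lost under 6 of 20 alternatives, among them leaving out Control 1 or Control 2 (edgeR, adjusted p = 0.0767 and 0.107). Of the other pathway genes, Bmp7 fell in both classes, from 219 ± 48.7 CPM (SD, n = 3) to 11.4 ± 8.89 CPM (SD, n = 7) in keratinocyte-like cells (log2 change -2.81, edgeR, adjusted p = 0.000933) and from 159 ± 51.8 to 41.9 ± 26.0 CPM in fibroblast-like cells (log2 change -2.34, edgeR, adjusted p = 0.0134, or 0.0729 without Control 2). The receptor Bmpr1a rose in fibroblast-like cells, from 691 ± 559 to 3593 ± 485 CPM (log2 change 1.89, edgeR, adjusted p = 0.0150), and missed the threshold without Control 1 or Control 2 (edgeR, adjusted p = 0.0614 and 0.0729). Its mean was also higher in buccal immune-like (1830 against 522 CPM), vascular (2378 against 601), mesenchymal (3454 against 768) and neural-like cells (3744 against 398). The higher Bmpr1a on the buccal slide was thus not particular to fibroblast-like cells. In keratinocyte-like cells the calls of Bmpr1a and Id1 depended on the scaling. Bmpr1a stood there at 1946 ± 1212 against 1027 ± 644 CPM, above all Control sections in 2 of 7. The buccal median of 1446 CPM lay within the Control range of 588 to 1766 CPM. The log2 change of Bmpr1a was 1.74 (edgeR, adjusted p = 0.0195), or 0.89 under library size (edgeR, adjusted p = 0.224). Id1 stood at 413 ± 104 against 210 ± 44.7 CPM, with a log2 change of 2.16 (edgeR, adjusted p = 0.00931) that was 0.97 under library size (edgeR, adjusted p = 0.0980). Without Control 1 or Control 2 neither passed (edgeR, adjusted p from 0.0542 to 0.108).

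**Figure D5:**
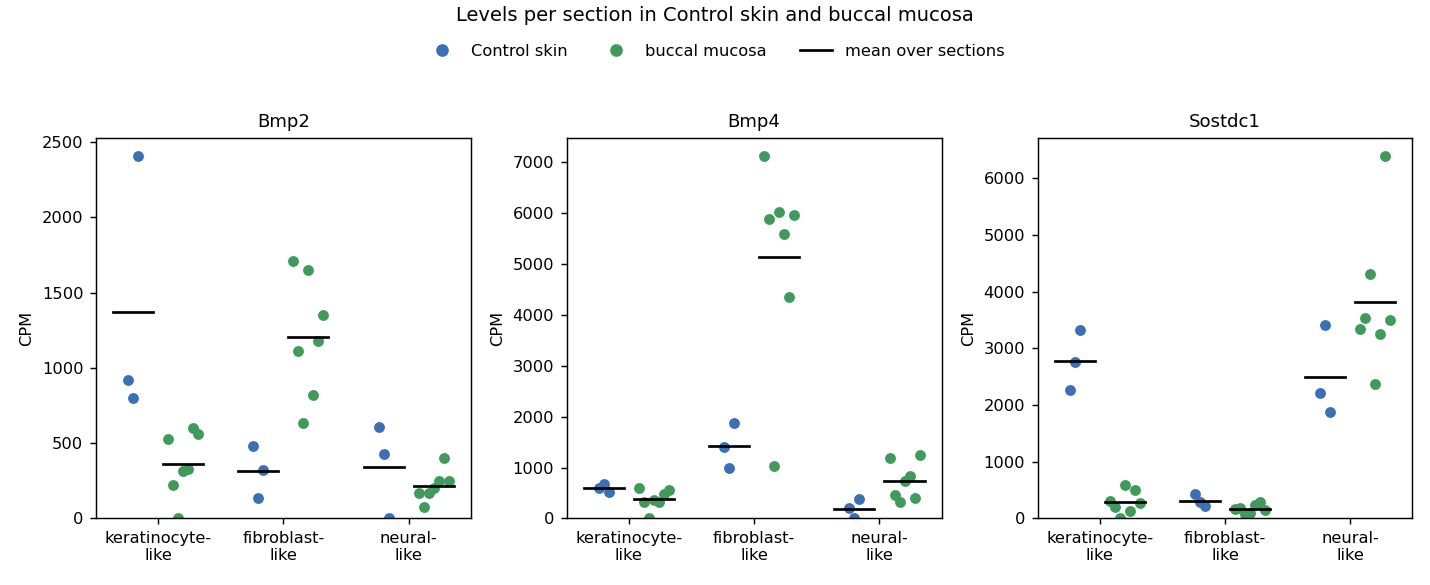
Level (CPM) of the 3 genes in keratinocyte-like, fibroblast-like and neural-like cells of Control skin and buccal sections, 1 point per section and a line at the mean. Buccal Sostdc1 is low in keratinocyte-like cells (288 against 2782 CPM on average) and fibroblast-like cells, and from 2371 to 6385 CPM in neural-like cells.

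Neural-like cells, named from Schwann cell and nerve genes such as Ncmap, Drp2 and Kcna1, carried Sostdc1 in every tissue. It was read there at 2220, 3416 and 1870 CPM in Control, at 3086, 3054, 7551 and 6238 CPM in PITX1+ and at 2371 to 6385 CPM in buccal sections. In buccal mucosa these cells were 0.987% to 4.61% of cells and held 14.0%, 13.2%, 74.3%, 4.71%, 20%, 8.16% and 15.3% of the Sostdc1 transcripts of Buccal 1 to 7, so Buccal 3, whose keratinocyte-like cells had none, stood apart. Control values rested on 5 to 16 transcripts each.

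The wounds, with 1 Control section, allowed no test, and their conditions could not be checked from the labels. Pitx1 in keratinocyte-like cells was 50.9 CPM in the wound assigned to Control and 632 and 321 CPM in the others. Bmp4 in keratinocyte-like cells was 1185 CPM in the Control wound (95% exact Poisson interval 1107 to 1267), 625 (587 to 666) in the first PITX1+ wound and 61.1 (50.2 to 73.7) in the second. Bmp2 was 1407 (1322 to 1496), 1129 (1077 to 1182) and 812 CPM (770 to 855) in the same order. These intervals cover counting error only. Hair shaft-like cells numbered 674, 435 and 7, so the wound with the lowest Bmp4 was the one with the fewest of them.

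In the hair shaft-like cells of the Control wound Bmp2 was 8462 CPM and Bmp4 11905 CPM, and in those of the first PITX1+ wound 13743 and 14360 CPM, within or above the range of unwounded PITX1+ skin. Bmp2 in basal-like cells was 579, 1262 and 1769 CPM in the Control and the 2 PITX1+ wounds, where unwounded skin had 467 to 715 CPM. Sostdc1 in dermal papilla-like cells was 15580, 2247 and 1083 CPM, and Shh-positive cells numbered 48, 53 and 18. In the Control wound, fibroblast-like cells within 25 µm of Shh-positive cells had 30513 CPM of Sostdc1 and 4340 CPM of Bmp4, so high Sostdc1 beside Shh-positive cells was also read in a section assigned to Control.

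Across 18 kinds of cell in skin and mucosa, the panel genes whose level was most like that of each member were found by Pearson's r of log2(CPM + 10). The closest to Bmp2 were Dsg4 (0.81), Jag1 (0.78), Krt75 (0.78), Krtap17-1 (0.78) and Wnt5a (0.77), of which Dsg4 and Krtap17-1 are in the marker list of hair shaft-like cells. The closest to Bmp4 were Wnt5a (0.85), Mlana (0.69), Id3 (0.69), Bmp2 (0.68) and Dsg4 (0.66). Spearman's rho was lower for some of these, at 0.48 for Dsg4 and 0.41 for Krtap17-1 with Bmp2 and 0.19 for Dsg4 with Bmp4, and stood at 0.78 and 0.83 for Wnt5a with Bmp2 and Bmp4. The closest to Sostdc1 were Ezh2 (0.79), Lgr6 (0.78), Krt15 (0.76), Ptch1 (0.73) and Wnt6 (0.71), with rho from 0.69 to 0.77, among them genes of dividing, upper follicle and bulge keratinocytes. Sostdc1 itself had an r of 0.12 with Bmp2 and 0.02 with Bmp4. The kinds share sections and depth, so these values are a description.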

How the data were processed

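Xenium in situ data of 4 slides were used. The authors deposited the instrument output, a table of cells with transcript counts per cell, not normalized, and a table of transcripts with a quality score, position and cell. Positions in µm and the nucleus mark are other deposited quantities, and outlines were not used. Software and segmentation settings were not given in the sources used here. Counts per cell were made from transcripts that scored 20 or more and equalled the deposited counts in 100% of cells. Of the members' transcripts 65.1% to 86.5% passed that score, 47.1% to 64.8% of those kept lay over a nucleus (27.9% to 45.2% of all genes' transcripts), and slides shared 1 to 7 cell identifiers. Negative probes averaged 32.4 to 329.75 transcripts each per slide.

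Sections were cells chained within 100 µm (200 µm for wounds), with at least 2000 cells. Cells with at least 10 transcripts were put into 45 k-means clusters on 40 principal components (scikit-learn 1.9.0, the best of 10 starts), without 9 genes, the members, the 5 other pathway genes and Pitx1. The clustering was run several times, some of them with the members' results already seen: in single precision with 2 starts, where the clusters changed with the number of threads, in double precision with 2 starts, and with 10 starts and random seed 1 or 2. Seed 1 with 10 starts was kept, because it gave identical clusters on repeats and a lower mean squared distance to the centres than 2 starts (40.29 against 40.33), and seed 2 (40.26) and the runs with 2 starts serve as alternatives. Clusters were named from fixed marker lists by the markers among 10 leading genes, where 3 or more markers stood at 1.5-fold and were read in 10% or more of cells. The naming rule was set after the clusters were seen, so names end in -like. The kinds called differentiated, activated and Pi16-type come from the same rule. Sebaceous-like cells were counted among the keratinocyte-like cells. No doublets were removed. Kinds needed at least 50 cells in each of the 7 skin sections for a test. Dermal papilla-like and activated cells fell short of that and were tested with at least 30, a minimum chosen after seeing the data. Sums per section and kind went into edgeR 4.0.16 (R 4.3.3) with TMM scaling, the filterByExpr filter and the quasi-likelihood functions glmQLFit and glmQLFTest (slide as covariate in skin, Benjamini-Hochberg over all genes tested, threshold 0.05) and again with DESeq2 1.42.0. Position and order were tested over sections on log2(CPM + 10) with exact sign-flip permutations (scipy 1.17.1, numpy 2.4.6 and pandas 2.3.3 under Python 3.11.15), and figures were drawn with matplotlib 3.10.9. Control sums are the shallowest in skin and have the widest counting error.

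Tested on simulated data, edgeR recovered 46% of genes changed by 1 and 93% of those changed by 2 on the log2 scale in keratinocyte-like cells, and 53% and 98% in fibroblast-like cells, with 328 genes and 1.56% and 2.34% of unchanged genes called. The genes named are the 3 members, the 5 other pathway genes, the 5 most alike genes of each member, Pitx1 and leading genes of kinds. Members, lists and tests were chosen with earlier results of these data known. Alternatives were another scaling or tool, no gene filter, nuclear transcripts, at least 20 transcripts per cell, 30 or 60 clusters, no slide covariate, other distances, Shh minimums of 1 and 5, pseudocounts of 1 and 100, and leaving out each section. Single clusters, the other clusterings, a second clustering within each class cells beyond 100 µm of Shh-positive cells and the alternatives for the other pathway genes were added after seeing the data.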

Additional observations from a re-analysis of the deposited data

Results flagged for a closer look

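Of the 24 groups of values examined, each over the PITX1+ or the buccal sections, 1 had a section that stood apart, where chance sets about 1 in 20 apart. That section was PITX1+ 4. Its Bmp4 level in dermal papilla-like cells was 3994 CPM and the nearest section was at 1581 CPM. The section had the highest median depth of the skin sections, 83 transcripts per cell, and its part in the value was not tested.

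The change of Sostdc1 in differentiated keratinocyte-like cells differed between the slides. Female sections had 873 and 934 CPM in Control and 211 and 89.6 CPM in PITX1+, while the male sections had 704 CPM in Control and 2648 and 3440 CPM in PITX1+. The change was larger on the male slide by 3.07 on the log2 scale (edgeR interaction test, adjusted p = 0.0185, with 11.6% of 303 genes called), and rests on 1 male Control section.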

How the results depend on the processing

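Of 27 results on the 3 genes, 7 kept their direction and their side of the threshold under every alternative run. Only 1 of these was a call, Bmp2 in bulge-like cells, and its size did not hold. It went from -3.08 to -1.18 in the Wfdc3-led cluster alone, a change that passed in 5 of 10 alternatives of its own. Of the other results, 5 were differences near Shh-positive cells, whose smallest possible p is 0.125, and 1 was the count of 0 neighbouring pairs. Of 447 alternatives 360 left a result as it was, 50 lost a call, 17 gained one and 20 turned a direction. The cause of these shifts was not tested. No paired analysis was possible because section numbers only give an order of position and pair no sections. Without the slide covariate the log2 changes in PITX1+ against Control skin were -2.13 for Bmp2, -2.62 for Bmp4 and 1.35 for Sostdc1 in dermal papilla-like cells and -0.70 for Bmp4 and 1.75 for Sostdc1 in fibroblast-like cells, all past the threshold with the covariate and short of it without, with 0.10 for Sostdc1 in bulge-like and 0.12 in keratinocyte-like cells. Library size in place of TMM gave 1.07 for Sostdc1 in dermal papilla-like, -0.99 for Bmp4 in fibroblast-like and 0.030 for Sostdc1 in bulge-like cells and, in buccal against Control, -1.84 for Bmp2 and -0.60 for Bmp4 in keratinocyte-like cells and 1.85 for Bmp4 and -0.90 for Sostdc1 in fibroblast-like cells. DESeq2 gave -0.51 for Bmp2 in keratinocyte-like cells, 0.12 for Sostdc1 in bulge-like cells, 1.70 for buccal Bmp4 in fibroblast-like cells and 2 calls in the 5 other kinds. Nuclear transcripts gave -2.01 for Bmp2 in dermal papilla-like, -0.91 for Bmp4 in fibroblast-like and 1.77 for Bmp4 in buccal fibroblast-like cells. With 30 clusters dermal papilla-like cells had -1.60 for Bmp2 and 1.02 for Sostdc1, and bulge-like cells 0.33 for Sostdc1. With 60 clusters Sostdc1 was 0.084 in bulge-like and -1.57 in buccal keratinocyte-like cells, buccal Bmp4 in fibroblast-like cells 1.62, and 1 call was made in the other kinds, as with 2 starts in single precision. At least 20 transcripts per cell gave 1.33 for Sostdc1 in dermal papilla-like, 0.092 in bulge-like and 1.38 for Bmp4 in buccal fibroblast-like cells. For Sostdc1, another random seed of the clustering gave 1.04 in dermal papilla-like and 0.049 in bulge-like cells, 2 starts 0.015 in bulge-like cells, and 2 starts in single precision 1.08 and 0.014. A second clustering gave -1.71 for Bmp2 and 1.07 for Sostdc1 in dermal papilla-like cells, a kind that there took in clusters led by Dsg3 or Igfbp2 with keratinocyte genes such as Krt5 and Krt17, so it was not the same class of cells, and the Wfdc3-led cluster alone 0.50 for Sostdc1. Beyond 100 µm of Shh-positive cells, Bmp4 was -1.45 and Sostdc1 0.015 in keratinocyte-like cells, and Sostdc1 -0.90 in dermal papilla-like and -0.079 in fibroblast-like cells. Bmp2 in bulge-like cells kept its call under all 21 alternatives, Bmp4 in dermal papilla-like cells under 19 of 20, with changes from -4.46 to -2.28. Both counts include the setting beyond 100 µm of Shh-positive cells, which removed cells from PITX1+ sections alone and gave the -4.46. The 20 also include the second clustering, whose dermal papilla-like kind was not the same class of cells.

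Leaving out 1 section at a time gave, in PITX1+ against Control skin, -2.90 to -0.78 for Bmp2 and 0.85 to 2.00 for Sostdc1 in dermal papilla-like cells, -0.35 to 0.054 for Sostdc1 in bulge-like cells, -0.93 to 0.063 for Bmp2, -1.55 to -1.04 for Bmp4 and 1.28 to 1.78 for Sostdc1 in fibroblast-like cells, and 0 to 2 calls in the 5 other kinds. In keratinocyte-like cells of that comparison it gave -0.57 to -0.16 for Bmp2, 0.057 to 0.92 for Bmp4 and -0.53 to -0.091 for Sostdc1. In buccal against Control it gave -0.94 to 0.36 for Bmp2, 0.64 to 0.99 for Bmp4 and -2.21 to -1.56 for Sostdc1 in keratinocyte-like cells, and 1.36 to 2.14 for Bmp2, 1.25 to 2.20 for Bmp4 and -1.34 to -1.04 for Sostdc1 in fibroblast-like cells. The turns of Bmp2 came without Control 3, and the loss of buccal Bmp2 in fibroblast-like cells without Control 2. Sostdc1 in keratinocyte-like cells near against far from Shh-positive cells ranged from -0.19 to 0.54, turned without PITX1+ 1. The number of genes called was 96 in edgeR against 164 in DESeq2 in keratinocyte-like, 35 against 54 in fibroblast-like, 50 against 117 in basal-like, 2 against 68 in differentiated and 83 against 143 in buccal fibroblast-like cells, and 38 against 25 under library size in dermal papilla-like cells. That scaling moved the share of calls that were higher from 51.5% to 62.5% in bulge-like, from 65.7% to 90.3% in fibroblast-like and from 73.1% to 59.2% in activated cells, and from 44.6% to 66.7% in buccal fibroblast-like cells. Some Control values rest on fewer than 20 transcripts.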
